A study of Mus musculus with 34 samples.

Results

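Zinc enters the cytosol of liver cells through transporters of the ZIP family (Slc39a genes) and leaves it, to the outside or into organelles, through the ZnT family (Slc30a genes). Metallothioneins are small cysteine-rich proteins that bind zinc and copper in the cytosol. The metal-sensing transcription factor MTF-1 binds metal response elements when zinc is plentiful and raises transcription of metallothionein genes and of the zinc exporter gene Slc30a1. Described here are 9 genes of this system, of 37583 genes in the deposited mRNA table: the ZIP genes Slc39a5, Slc39a4, Slc39a8 and Slc39a14, the ZnT genes Slc30a1 and Slc30a10, the metallothionein genes Mt1 and Mt2, and Mtf1, which encodes MTF-1. They were picked by name, with their mRNA differences between the groups already known, so those differences are given as a description without a p-value.

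The study took livers of F1 mice of the C57Bl6 and CBA strains, 45 days after birth. The libraries labelled KO came from Setd8lox/lox-Alb-Cre mice, in which the albumin promoter, active in hepatocytes, drives Cre recombinase, so that other cell types of the liver should keep the gene, and those labelled WT from wild-type mice. Setd8 encodes the enzyme that puts a single methyl group on lysine 20 of histone H4. Polyadenylated RNA was sequenced from 3 KO and 3 WT libraries. Nascent RNA was sequenced from 1 KO and 1 WT library by ethynyl uridine (EU), given to the living mouse at 25 mg per kg 30 min before death, and from 1 KO and 1 WT library by bromouridine run-on in isolated nuclei (Br), run for 3 min. The labels do not say that replicates are separate animals, so p-values measure only the spread between these libraries. A further 24 samples of chromatin or input DNA were not used here.

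Setd8 itself was not lower in the libraries labelled KO. Its scaled values were 1199, 1040 and 1075 in the KO libraries and 593, 615 and 1076 in the WT libraries, which differ by 0.59 ± 0.25 in log2 (SE, with a limma adjusted p of 0.244). Without WT replicate 3 the log2 difference was 0.87 and passed the threshold in the direction of higher KO values (limma adjusted p = 0.0198). A value summed over a whole gene does not resolve a deleted exon, so the genotype is taken from the labels alone, here and in every direction given below. Scaled values summed to 18069344 to 20102731 in KO and 20066093 to 25820906 in WT libraries. WT replicate 3 stood apart, with reads on 20077 genes while each of the other 5 libraries had reads on 24497 to 26247, and zinc gene differences that it changed are given with and without it. Hepatocyte markers such as albumin summed to 1813370 to 1984197 in KO and 1799473 to 2819963 in WT libraries, and none of the 8 was called by limma or edgeR (1 unadjusted p under 0.05).

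Markers of other liver cell types were higher in KO for part of the lists. Macrophage markers summed to 9204 to 20532 in KO and 6659 to 8733 in WT, with a median log2 difference of 1.19, and 7 of 8 had an unadjusted p under 0.05. The share of all tested genes with an unadjusted p under 0.05 was not counted, so such counts, here and for every list, have no background beside them. Such p-values were common among all genes, since the unadjusted limma p of Setd8, 0.048, became 0.244 after adjustment. Nothing is read from these counts alone. For 26.0% of all tested genes every KO library lay above, or every KO library below, all WT libraries. Stellate cell markers summed to 4032 to 6321 in KO and 2551 to 3646 in WT (median 0.73, 3 of 8), and endothelial markers to 6271 to 6983 in KO and 5946 to 6347 in WT (median 0.56, 4 of 7). Cholangiocyte markers summed to 1050 to 1949 in KO and 577 to 717 in WT, which Spp1 alone carried: the other 6 summed to 380, 256 and 247 in KO and 392, 276 and 247 in WT. Lymphocyte markers summed to 121 to 411 in KO and 101 to 194 in WT. After adjustment over all genes, Csf1r of macrophages, Pdgfrb of stellate cells and Spp1 were called higher, with log2 differences of 1.65, 1.36 and 1.85. Csf1r and Spp1 kept the call only in the fits without KO replicate 3 (1.94 and 2.14) or without WT replicate 3 (1.68 and 2.09), and Pdgfrb only in the fit without WT replicate 3 (1.36). Leaving out WT replicate 3 added calls for Cd68 of macrophages, Reln of stellate cells and Cdh5 and Oit3 of endothelium. The part of these cells in the zinc gene values was not tested, and in whole liver more cells of a type and more RNA per cell cannot be told apart.

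The stretches upstream of 5 RefSeq start sites show where letters of the metal response element lie beside genes that differed between the groups and genes that did not. Each line gives the 250 bases before a start, 5′ to 3′ on the gene's strand, from RefSeq on GRCm38.p6, which is not the build of the authors' alignment (mm9). Capitals mark TGCACNC or TGCGCNC, the core letters of the element, on either strand.
Mt2, chr8:94172368-94172617, plus strand: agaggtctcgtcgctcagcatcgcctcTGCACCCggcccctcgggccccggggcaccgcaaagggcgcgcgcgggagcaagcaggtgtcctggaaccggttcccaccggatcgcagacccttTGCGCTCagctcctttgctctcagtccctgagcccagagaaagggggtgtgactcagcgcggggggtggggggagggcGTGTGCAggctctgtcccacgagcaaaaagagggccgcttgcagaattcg
Mt1, chr8:94178839-94179088, plus strand: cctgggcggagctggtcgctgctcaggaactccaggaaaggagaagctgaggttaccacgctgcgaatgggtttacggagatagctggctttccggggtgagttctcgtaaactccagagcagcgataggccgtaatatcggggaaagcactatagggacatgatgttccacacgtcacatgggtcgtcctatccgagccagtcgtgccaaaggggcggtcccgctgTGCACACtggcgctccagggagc
Slc30a1, chr1:191906531-191906780, plus strand: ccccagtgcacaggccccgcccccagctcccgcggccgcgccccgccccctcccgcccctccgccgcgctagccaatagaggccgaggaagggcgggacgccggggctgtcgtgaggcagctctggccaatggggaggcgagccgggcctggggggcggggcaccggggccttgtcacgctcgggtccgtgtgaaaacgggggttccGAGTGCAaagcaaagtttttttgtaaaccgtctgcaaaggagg
Slc39a5, first start, chr10:128401225-128401474, minus strand: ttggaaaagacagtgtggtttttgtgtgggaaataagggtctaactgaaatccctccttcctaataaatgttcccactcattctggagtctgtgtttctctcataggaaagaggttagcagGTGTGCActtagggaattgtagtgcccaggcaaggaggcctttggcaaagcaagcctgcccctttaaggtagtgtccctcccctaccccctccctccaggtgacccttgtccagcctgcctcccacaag
Slc39a5, second start, chr10:128400467-128400716, minus strand: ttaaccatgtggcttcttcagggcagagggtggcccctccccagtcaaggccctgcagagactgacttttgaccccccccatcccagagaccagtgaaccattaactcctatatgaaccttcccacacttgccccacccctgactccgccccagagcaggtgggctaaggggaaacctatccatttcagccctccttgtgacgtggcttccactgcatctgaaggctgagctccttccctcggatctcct

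The search covered these bases and the 50 after each start. Mt2 held 4 matches, at -223, -128, -50 and +5 from the start, and Mt1 held 3, at -23, +3 and +21. Slc30a1 held 2, at -43 and +31. The first Slc39a5 start held 1, at -129, and the second none. Slc30a10 held 3, of which 2 overlap as a palindrome at -233 and -232 and the other lies at -73. One of the 2 Slc39a8 starts held 1, at -19, and Mtf1 held none. Slc39a4 and Slc39a14 had no window in the set used, so neither gene was searched. Of 32851 RefSeq windows of this length in the mouse, 25.7% held at least 1 match, 7.11% at least 2, 1.97% at least 3 and 0.517% at least 4. The RefSeq start of Mt1 lies 122 bases upstream of the next transcript start in the GENCODE annotation, and that of Mt2 lies 46 bases upstream of the start of the principal transcript, so these windows miss part of what lies before other starts. The core of the antioxidant response element, TGACNNNGC, was present at -79 in Mt2, at -82 in Slc30a1, at -35 in the first Slc39a8 window and at -110 and -52 in the second Slc39a5 window, and in 12.4% of all windows. The E-box CACGTG occurred in the second Slc39a8 window at -71 and in 7.15% of all windows, and the letters TTCNNNGAA of STAT sites in none of the windows of these genes and in 8.3% of all. A match is a run of letters and not a shown binding site.

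Among the ZIP genes, the largest difference was that of Slc39a5, which encodes ZIP5, a zinc importer known from the basolateral membrane of intestinal cells and from pancreatic acinar cells. Slc39a5 had scaled values of 1172, 693 and 625 in the KO libraries, against 36, 36 and 16 in the WT libraries. Every KO library lay far above every WT library. The means were 830 ± 298 in KO and 29.3 ± 11.5 in WT (SD, n = 3 each), a 28.0-fold difference (log2 4.81 ± 0.39, SE). With any 1 library left out, the log2 difference lay between 4.43, without WT replicate 3, and 4.99, and Slc39a5 kept its call in all 6 of these fits. In the fit across all genes, 2.71% of the 16813 tested genes were called, 1.35% higher and 1.36% lower in KO, and of the 9 zinc genes 3 were called, 2 higher and 1 lower. Their groups did not overlap for 5 of the 9, against 26.0% of all tested genes. By edgeR 2.77% of all tested genes and 3 zinc genes were called, and by limma without WT replicate 3 these were 9.91% and 3. Nothing is read from these counts, since the genes were chosen with this contrast known.

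Slc39a4 encodes ZIP4, the main importer of dietary zinc in the intestine, whose loss in people causes the zinc deficiency acrodermatitis enteropathica. Its scaled values were 3962, 3751 and 3013 in KO, against 1728, 1543 and 1541 in WT. The groups did not overlap. The difference was 2.22-fold (log2 1.15 ± 0.19, SE), and Slc39a4 was called higher. Slc39a4 lost its call when KO replicate 1, KO replicate 2, WT replicate 1 or WT replicate 2 was left out, with log2 differences of 1.07, 1.11, 1.20 and 1.12 in that order. It was called without KO replicate 3 (1.27) and without WT replicate 3 (1.12).

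Slc39a14 and Slc39a8 encode ZIP14 and ZIP8, close relatives that carry zinc, manganese and iron into cells. ZIP14 is a main zinc importer of hepatocytes and its gene is known to respond to interleukin 6. Slc39a14 had values of 3177, 3983 and 4193 in KO and 4409, 5234 and 8410 in WT. All 3 KO libraries lay below the lowest WT library, by a narrow margin. The log2 difference was -0.62 ± 0.27 (SE), not called, and -0.35 without WT replicate 3, the highest library. Slc39a8 had 405, 431 and 535 in KO and 375, 424 and 563 in WT, with groups that overlapped and a log2 difference of 0.02 ± 0.22.

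Neither exporter gene was called. Slc30a1 encodes ZnT1, the zinc exporter of the plasma membrane. It had 785, 796 and 695 in KO and 742, 817 and 947 in WT, which overlapped, with a log2 difference of -0.13 ± 0.18 (SE). Slc30a10 encodes ZnT10, which exports manganese in people and mice. It had 479, 612 and 958 in KO and 339, 374 and 374 in WT. The lowest KO library lay above the highest WT library, and KO replicate 3 was far above the others (1.81-fold, log2 0.85 ± 0.26). The log2 difference was 0.58 without KO replicate 3.

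Mt1 and Mt2 encode the metallothioneins of the liver and lie 5513 bases apart on chromosome 8, in the same direction. Mt2 had 251, 111 and 215 in KO, against 867, 699 and 1730 in WT. All KO libraries lay well below all WT libraries. Mt2 was 5.57-fold lower in the libraries labelled KO (log2 -2.48 ± 0.41, SE) and was called lower. Mt2 was still called when WT replicate 3 was left out, with a log2 difference of -2.09. It was not called when any other library was left out, with differences of -2.71, -2.12 and -2.60 for KO replicates 1 to 3, and of -2.59 and -2.75 for WT replicates 1 and 2. Mt1 had 1136, 900 and 1537 in KO and 1567, 1262 and 3543 in WT, where KO replicate 3 lay above WT replicate 2. Its log2 difference was -0.72 ± 0.39 (SE), not called, and -0.27 without WT replicate 3. Mtf1 had 340, 376 and 436 in KO and 340, 378 and 430 in WT, almost the same values in both groups (log2 0.00 ± 0.20).

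**Figure D1:**
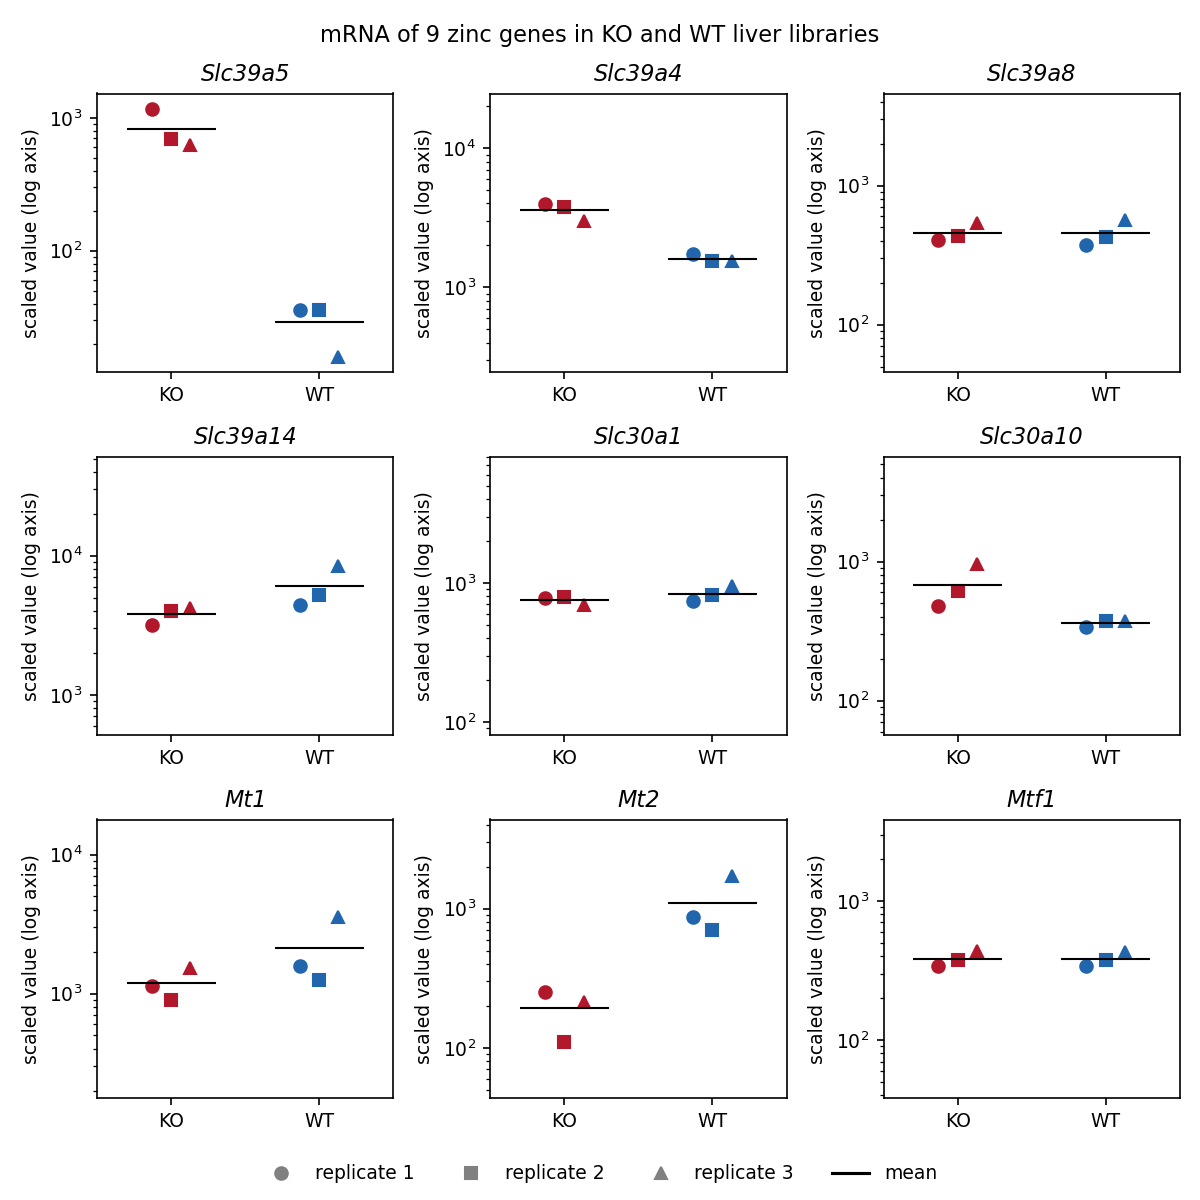
Scaled mRNA values of the 9 zinc genes (log axes, each panel with its own range) in the 3 KO libraries (red, left) and the 3 WT libraries (blue, right), with a bar at each mean. Slc39a5 runs from 625 to 1172 in KO and from 16 to 36 in WT, Mt2 from 111 to 251 in KO and from 699 to 1730 in WT, and Mtf1 covers the same range in both.

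A ratio taken within a library does not depend on the scaling between libraries. Mt2 came to 22.1%, 12.3% and 14.0% of Mt1 in the KO libraries and to 55.3%, 55.4% and 48.8% in the WT libraries. WT replicate 3, which had the highest metallothionein values, was close to the other WT libraries in this ratio. Mt1 and Mt2 together summed to 1387, 1011 and 1752 in KO and 2434, 1961 and 5273 in WT, without overlap. Within the ZIP family, per kilobase of transcript, Slc39a5 made up 12.5%, 7.79% and 7.33% of the summed values in KO and 0.563%, 0.528% and 0.160% in WT. The share of Slc39a4 was 31.2%, 31.1% and 26.0% in KO and 19.9%, 16.7% and 11.4% in WT, and that of Slc39a14 was 14.0%, 18.4% and 20.2% in KO and 28.4%, 31.5% and 34.7% in WT. Slc39a4 took the larger share of these 2 in every KO library, and Slc39a14 in every WT library. The family sum itself overlapped, at 4613, 4393 and 4213 in KO and 3156, 3369 and 4926 in WT. Slc30a10 made up 12.5%, 13.2% and 18.7% of the ZnT family sum in KO and 7.58%, 7.25% and 6.15% in WT.

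**Figure D2:**
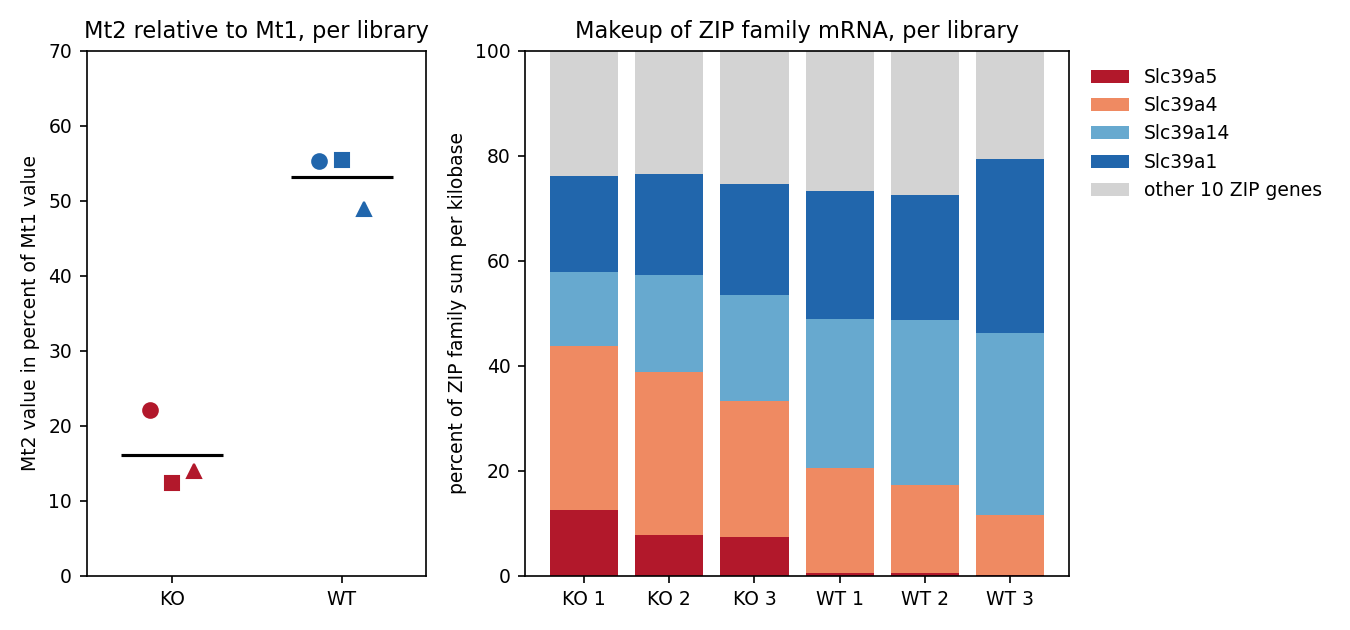
Left, the Mt2 value in percent of the Mt1 value in each KO (red) and WT (blue) library, with a bar at each mean: 12.3% to 22.1% in KO and 48.8% to 55.4% in WT. Right, the makeup of the ZIP family sum per kilobase in each library, where Slc39a5 (lowest segment) takes 7.33% to 12.5% in KO and 0.160% to 0.563% in WT.

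The order of the genes by level, as scaled value per kilobase of the principal transcript, differed between the groups. In KO the order was Mt1 (2169 ± 587, SD, n = 3), Slc39a4 (1300 ± 181), Slc39a14 (768 ± 109), Slc39a5 (410 ± 147), Mt2 (376 ± 142), Slc30a1 (145 ± 10.6), Slc39a8 (129 ± 19.5), Slc30a10 (117 ± 42.4) and Mtf1 (50.3 ± 6.36). Slc39a5 and Mt2 overlapped as neighbours in this order, as did Slc30a1 with Slc39a8 and Slc39a8 with Slc30a10. In WT the order was Mt1 (3869 ± 2256), Mt2 (2150 ± 1083), Slc39a14 (1222 ± 429), Slc39a4 (583 ± 39.1), Slc30a1 (159 ± 19.8), Slc39a8 (129 ± 27.6), Slc30a10 (62.1 ± 3.46), Mtf1 (50.1 ± 5.92) and Slc39a5 (14.5 ± 5.70). There Mt1 overlapped with Mt2, Mt2 with Slc39a14 and Slc30a1 with Slc39a8. Slc39a5 stood just above Mt2 in KO, and below Mtf1 as the lowest gene in WT.

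Since ZIP5 and ZIP4 are also made outside the liver, in pancreas and intestine, markers of cells of both organs were measured. The 10 acinar genes, digestive enzymes such as Cpa1 and Pnlip, summed to 16 to 25 in KO and 3 to 50 in WT libraries, with Try4 at 0 in all 6 and no value above 13 (Ctrb1), so that none was tested. Enterocyte markers summed to 1274 to 2588 in KO and 1031 to 1931 in WT, of which Fabp2 alone reached 1600. None of the 5 tested was called by limma or edgeR, with a median log2 difference of 0.75 and 2 unadjusted p under 0.05. These were Vil1, the actin-bundling protein of microvilli, with 31, 96 and 50 in KO and 29, 17 and 19 in WT (1.29), and Lgals4, with 881, 863 and 504 in KO and 270, 425 and 574 in WT (0.84). The intestinal enzymes Sis, Alpi and Lct reached at most 25 in any library. The part of such cells in the values of Slc39a5 and Slc39a4 was not tested.

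Slc39a5 lies on chromosome 10 at 128395931 to 128401229 (GRCm38, minus strand), inside the span of Ankrd52, which is read from the plus strand, and 165 bases from Nabp2. The counting strand is not given in the sources used here, so reads of Slc39a5 and Ankrd52 could not be told apart where they overlap. Ankrd52 had scaled values of 869, 824 and 947 in KO and 747, 649 and 942 in WT, which overlapped. No other annotated gene near Slc39a5 was called: the log2 differences were 0.19 for Ankrd52, 0.35 for Gm17201, 0.29 for Nabp2 and 0.02 for Rnf41, with limma adjusted p-values of 0.65, 0.627, 0.537 and 0.987, and the small RNA genes Gm26308 and Gm26347 were at 0 or 1. Around the metallothionein pair, Bbs2 (0.35, limma adjusted p = 0.613) and Nup93 (0.69, limma adjusted p = 0.171) were not called, and Nup93 did not overlap, at 117, 132 and 122 in KO and 86, 67 and 77 in WT. Mt3, Mt4, Slc12a3 and Mir138-2 were too low to be tested, with Mt3 at 3, 1 and 0 in KO and 2, 1 and 0 in WT. Slc39a8, Mt2, Slc30a1, Slc30a10 and Mtf1 each overlap an annotated gene on the opposite strand too.

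Nascent RNA was available from 1 library per group and method, so there is no replicate check and no test. Ratios are log2 of KO over WT reads, centred on the median gene, with 95% Clopper-Pearson intervals that cover counting error only. The EU libraries held 5583983 reads in KO and 10833287 in WT, and the Br libraries 2317840 in KO and 3156055 in WT. Slc39a5 had 75 Br reads in KO and 36 in WT, a ratio of 1.51 (0.92 to 2.12). By EU it had 0 reads in KO and 5 in WT, under the 20 reads set for a ratio, so no ratio is given. A count of 0 allows up to about 3 reads, and the higher KO values of mRNA and Br were not seen by EU. Ankrd52, the gene around it, had a Br ratio of -0.29 and an EU ratio of -0.01. Gm17201, 368 bases from Slc39a5 on the same strand, had 89 EU reads in KO and 22 in WT (2.99, 2.31 to 3.74). By Br it had 6 reads in KO and 16 in WT (-0.97). Slc39a4 had 109 EU reads in KO and 82 in WT, a ratio of 1.39 (0.96 to 1.82), and 208 Br reads in KO and 277 in WT, a ratio of 0.04 (-0.23 to 0.30). Both ZIP genes called higher in mRNA thus had a positive ratio by 1 nascent method and none, or one near 0, by the other.

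Mt2 was far lower in nascent RNA of the KO libraries by both methods. It had 1 EU read in KO and 452 in WT (ratio -7.84, -13.15 to -5.36) and 7 Br reads in KO and 42 in WT (-2.14, -3.53 to -0.97). Of 6856 genes with at least 200 EU reads in WT, 15 had at most 1 KO read, the count of Mt2, and 57 at most 10. Of 4996 genes with at least 200 EU reads in KO, 6 had at most 1 WT read and 11 at most 10. Genes with fewer reads could also be nearly absent in KO by EU alone. Nabp2 had 1 EU read in KO and 46 in WT, and the ZIP gene Slc39a6 had 0 and 43, each with a Br ratio of 0.28. Mt1 had 410 EU reads in KO and 389 in WT (1.05, 0.85 to 1.26), and 65 Br reads in KO and 136 in WT (-0.62, -1.06 to -0.18), so that the methods differed in sign. Of the reads on the pair, Mt2 took 0.243% in the KO library and 53.7% in the WT library by EU, with intervals of 0.00616 to 1.35% and 50.3 to 57.2%. By Br it took 9.72% (4 to 19%) in the KO library and 23.6% (17.6 to 30.5%) in the WT library. The share of Mt2 was thus lower in the KO library in EU, in Br and, as above, in mRNA.

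The methods also differed in sign for Slc39a14, which had 15505 EU reads in KO and 12907 in WT (1.24, 1.21 to 1.28) but 548 Br reads in KO and 1565 in WT (-1.06, -1.21 to -0.92). Slc30a10 had 54 EU reads in KO and 633 in WT (-2.58, -3.00 to -2.17), and 153 Br reads in KO and 175 in WT (0.26). The Br ratios of Slc39a8, Slc30a1 and Mtf1 were 0.11, 0.04 and -0.20. Their EU ratios were 0.39, -0.34 and -0.98, with 219 Mtf1 reads in KO and 848 in WT. Among genes with at least 20 reads, EU was 2-fold or more higher in KO for 3 of the 8 zinc genes that reached them (24.9% of all) and lower for 2 (23.2% of all), and Br was higher for 1 of the 9 (7.49%) and lower for 2 (7.01%). These shares of all genes show how common a 2-fold ratio was between the single libraries, above all by EU.

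Markers of some other cell types differed between the same nascent libraries. Of stellate cell markers with at least 20 reads, 6 of 7 were higher in KO by EU (median 3.11) and 8 of 8 by Br (median 1.10), with 3396 Col3a1 reads in KO and 529 in WT by EU. Of macrophage markers 5 of 6 were higher by EU (median 2.12) and 6 of 7 by Br (0.45), and of cholangiocyte markers 5 of 5 (2.81) and 4 of 4 (1.07). Endothelial markers were split, with 3 higher and 4 lower in KO by each method (medians -0.25 by EU and -0.02 by Br). Enterocyte markers were higher for 4 of 4 by EU (median 3.77) and for 1 of 4 by Br (median -0.29). By EU, Fabp2 had 102 reads in KO and 0 in WT, and Lgals4 had 431 in KO and 164 in WT. Hepatocyte markers were lower for 6 of 8 by each method, with medians of -0.29 by EU and -0.18 by Br, and Cps1 of the urea cycle had ratios of -1.73 by EU and -1.17 by Br. Acinar markers, nearly absent by EU, held 172 Br reads in KO and 545 in WT, and 8 of 9 were lower in KO. The part of these cells in the nascent ratios of the zinc genes was not tested.

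**Figure D3:**
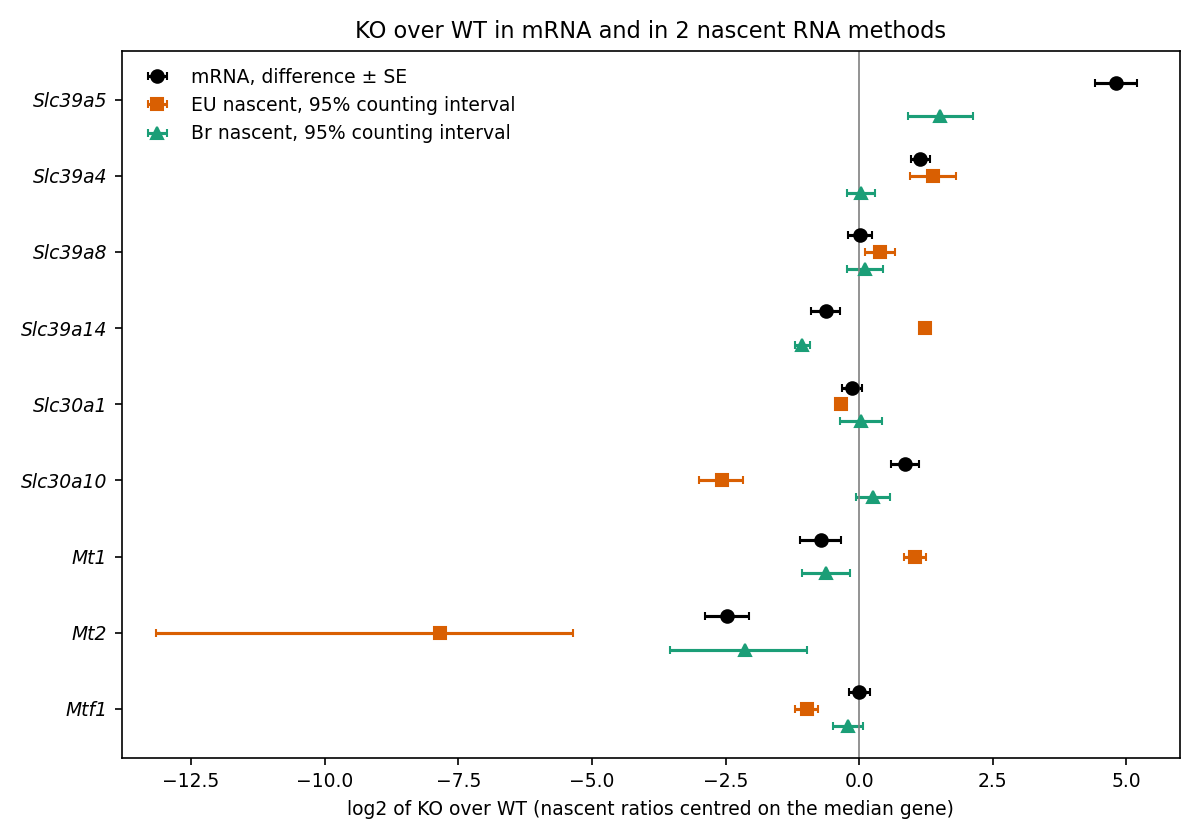
Log2 of KO over WT for the 9 zinc genes in mRNA (black circles with SE, 3 libraries each) and in nascent RNA by EU (orange squares) and Br (green triangles), 1 library each with 95% counting intervals. Mt2 lies below 0 in all 3 (-2.48, -7.84 and -2.14), Slc39a5 lies above 0 in mRNA and Br (4.81 and 1.51) with no EU ratio, and Slc39a14 and Mt1 have EU and Br ratios of opposite sign.

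The other genes of zinc handling were mostly not called. Of 10 other ZIP genes 9 were tested and none was called by limma or edgeR, with a median log2 difference of 0.21, beside 0.0023 over all tested genes, and 1 had an unadjusted p under 0.05. That was Slc39a11, which encodes ZIP11, with 1061, 811 and 884 in KO and 533, 592 and 578 in WT. Its groups did not overlap (log2 0.69 ± 0.18, SE, limma adjusted p = 0.0854), and it was called without WT replicate 3 (adjusted p = 0.0489). Of 8 other ZnT genes 7 were tested and none was called by limma or edgeR, with a median of -0.33 and 1 unadjusted p under 0.05. Slc30a9, a transporter of mitochondria, was lowest, with 1160, 1226 and 1476 in KO and 1788, 2141 and 2249 in WT (-0.68 ± 0.19, limma adjusted p = 0.0979).

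Of 6 tested genes described as MTF-1 targets beside the zinc genes above, 1 was called, higher in KO, and the median was 0.21. The lowest mRNA difference was that of Hamp, which encodes the iron hormone hepcidin, at -0.82 ± 0.67 (SE, limma adjusted p = 0.55). Hamp had nascent ratios of 4.29 by EU and -0.34 by Br. The called gene was Ndrg1, a gene of stress and hypoxia responses, with 902, 618 and 689 in KO and 197, 239 and 260 in WT. It rose by 1.65 ± 0.22 on the log2 scale (limma adjusted p = 0.0117), and was not called without KO replicate 2 (1.77) or WT replicate 2 (1.68). Its nascent ratios were 2.16 by EU and 0.95 by Br.

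Metallothionein genes and Slc39a14 are also known to respond to glucocorticoids and to interleukin 6. Of 9 glucocorticoid-induced genes none was called by limma or edgeR, with a median of -0.06 and 1 unadjusted p under 0.05. The largest difference was that of Zbtb16 (0.97 ± 0.53, limma adjusted p = 0.362). Their sum was 26941, 32089 and 96032 in KO and 28808, 35915 and 36239 in WT, where Tat alone gave 75293 in KO replicate 3, the library with the highest Slc30a10 value. In nascent RNA, 6 of the 9 were lower in KO by EU (median -0.41) and 7 of the 9 by Br (median -0.33). Tat, which encodes tyrosine aminotransferase, had ratios of -2.16 by EU and -1.70 by Br, and Fkbp5, a chaperone partner of the glucocorticoid receptor, -1.70 by EU and -1.29 by Br. These 2 genes were more than 2-fold lower in the KO library by each nascent method, while in mRNA neither was called (0.67 for Tat and -0.06 for Fkbp5). Sgk1 (2.10 by EU, 0.88 by Br) and Dusp1 (1.94 by EU, 0.40 by Br) had the opposite sign by both methods. Outside the list, Cps1 (-1.73 by EU, -1.17 by Br) and Slc30a4 (-1.10 by EU, -1.52 by Br) were also more than 2-fold lower by both. So was the ZIP gene Slc39a2 (-1.235 by EU, -1.245 by Br), and Mt2, as above. The share of all genes lower by both methods was not counted.

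Of 12 genes induced by interleukin 6 and STAT3, 1 rose and 11 were not called, with a median of 0.25. Lcn2, which encodes the siderophore-binding acute phase protein lipocalin 2, had 1572, 845 and 405 in KO and 103, 80 and 44 in WT. The groups did not overlap, and among KO libraries replicate 1 was highest and replicate 3 lowest. Lcn2 rose by 3.49 ± 0.50 on the log2 scale (limma adjusted p = 0.0168), and was not called without KO replicate 1 (3.02), KO replicate 2 (3.46) or WT replicate 2 (3.57). Its EU ratio had the opposite sign, with 7 reads in KO and 187 in WT (-3.76, -5.10 to -2.69), and by Br it had 7 reads in KO and 3 in WT. Of the list, 10 of 12 genes were lower in KO by EU (median -0.89) and 8 of 11 by Br (median -0.33). Over these 5 lists and those of other metallothioneins, iron and copper genes, 66 genes were tested and 2 were called. Of all 16813 tested genes 2.71% were called, so nothing is read from this count.

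**Figure D4:**
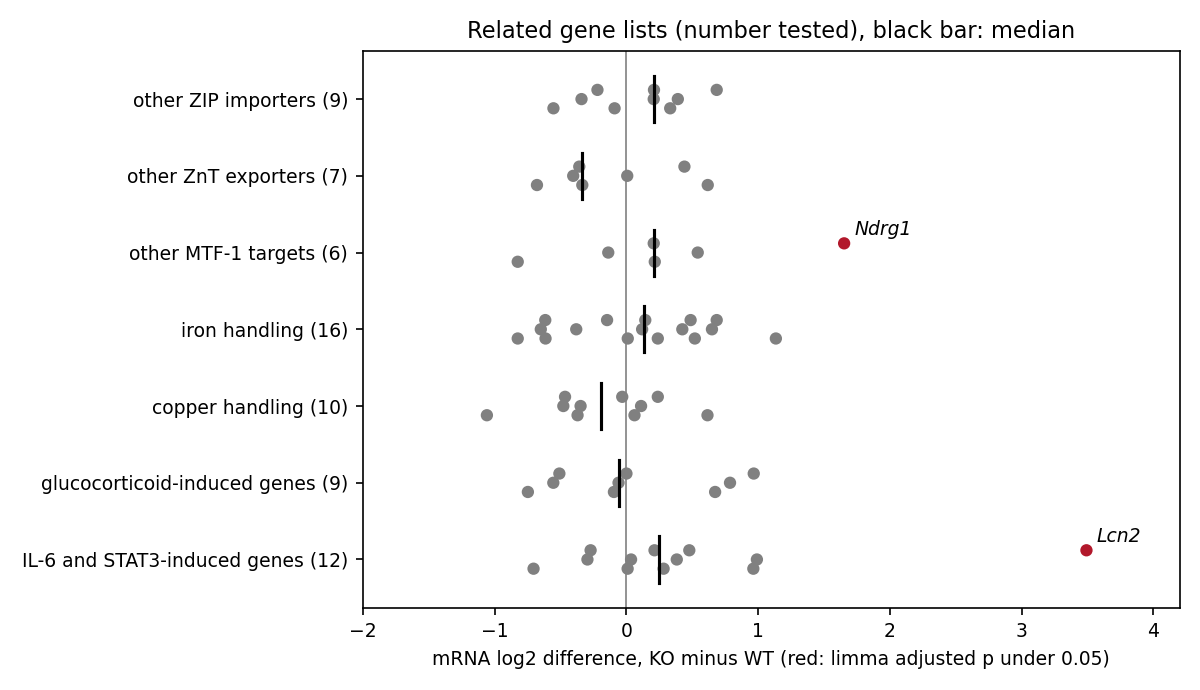
Log2 mRNA differences, KO minus WT, of the tested genes in 7 related lists (rows, with the number tested), with a black bar at each median and called genes in red. Medians lie between -0.33 and 0.25, and the called genes are Ndrg1 (1.65) and Lcn2 (3.49).

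The genes most like Slc39a5 over the 6 libraries, by Pearson correlation of log2 values, were Lamb1 (0.9992), Nicn1 (0.9978), Igfbp3 (0.9967), Cryzl2 (0.9963) and Amt (0.9957). Lamb1 had 306, 266 and 267 in KO and 143, 139 and 122 in WT, and Igfbp3 had 1471, 1276 and 1177 in KO and 315, 358 and 271 in WT. Like Slc39a5, each was highest in KO replicate 1 and lowest in WT replicate 3. Slc39a4 ranked 49th, at 0.9816. The genes most like Mt2 were Scp2 (0.9970), Rwdd3 (0.9964), Pim2 (0.9937), Gm15622 (0.9934) and Mrps16 (0.9920). Scp2, which encodes a sterol carrier protein of peroxisomes, had 64521, 56283 and 63276 in KO and 84450, 82879 and 101579 in WT. Mt1, the neighbour of Mt2, ranked 1402nd, at 0.8141. These correlations rest on 6 points in 2 groups that share their libraries and are a description.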

How the data were processed

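The members and the gene lists were chosen with earlier results of these data known. The mRNA files hold a score: per the submitters' processing notes, which name DESeq, TopHat2, Bowtie2, Cufflinks and mm9, the authors scaled values between libraries and deposited them as whole numbers. The nascent RNA files hold read counts as the authors deposited them. All Br counts are even and were divided by 2. The authors also deposited RPKM for the nascent libraries, used as an alternative. Counter, annotation and strand setting are not given in the sources used here.

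Scaled values are not raw counts, so limma-trend (limma 3.58.1, R 4.3.3, robust, two-sided) was fitted to log2 of the value plus 1 over 16813 genes with at least 10 in at least 3 libraries, with Benjamini-Hochberg adjustment over all of them and calls at 0.05. Fold changes are on that scale and understate low genes. edgeR 4.0.16 (quasi-likelihood) on reads re-estimated from the rounding steps (15638705 to 27117185 per library, approximate) was an alternative. It called 465 genes, 2.77%. The share of values lying on the steps was 98.65% to 100.0%, but 3 libraries have a step under 1, where every whole number does. Both fits were tested on simulated data. Levels per kilobase used the principal GENCODE transcript on GRCm38, as did coordinates. Symbols matched 32860 of 37583 IDs.

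Named were the 9 members, the called genes of each list or else its largest change, 5 genes most like Slc39a5 and Mt2, and 3 neighbours on each side. The labels do not state a pairing by replicate number. Deviations of same-numbered libraries had correlations of 0.409, -0.242 and 0.198, which without other pairs beside them do not settle it. Alternatives were the pseudocount, filter, scaling, test, replicate block and each library left out, and for nascent RNA the centring, unit, read minimum and an added read. Promoter windows came from RefSeq (GRCm38.p6), and 7 of the 9 genes matched, all but Slc39a4 and Slc39a14. edgeR and ratios without WT replicate 3 were added after seeing the data.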

Additional observations from a re-analysis of the deposited data

How the results depend on the processing

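Of 267 alternative values, 17 counts of calls moved by over 1.5 times and 14 values lost their call: Mt2 in 5 fits with a library left out (log2 difference over the 6 such fits -2.75 to -2.09), Slc39a4 in 4 (1.07 to 1.27), Lcn2 in 3 and Ndrg1 in 2. No called value changed sign. Slc39a8 and Mtf1, near 0 with all libraries, had the other sign in 6 values, -0.11 to -0.00. The other uncalled differences moved by less than 1 SD between replicates, which for Mt1 spans -0.72 and -0.27. The count of genes called was 455, between 28 (without KO replicate 2) and 1666 (without WT replicate 3) with a library left out, and 1698 by edgeR without WT replicate 3. With a replicate block, which the labels' numbers do not justify as a pairing, it was 1014 and the same number of zinc genes, 3, was called. The number of zinc genes called lay between 1 and 3 with a library left out. It was 1 without KO replicates 1 or 2 or WT replicates 1 or 2, where Slc39a5 was the gene called. Of the related lists, 0 to 5 genes were called with a library left out, against 2 with all libraries, and 4 by edgeR without WT replicate 3. The cause of these shifts was not tested. Mt2 in EU rests on 1 KO read, and its log2 ratio was -6.86 with 1 read added to each count and -5.47 by RPKM. Depth limits the nascent values of Slc39a5 and Mt2.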

Other observations

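Iron handling genes were described next to the zinc genes because ZIP14 and ZIP8 also carry iron. Of 16 tested genes none was called by limma or edgeR, 5 had an unadjusted p under 0.05, and the median log2 difference was 0.13. Heph, a ferroxidase, differed most on the log2 scale, with scaled values of 40, 49 and 42 in KO libraries and 32, 35 and 6 in WT libraries (1.13 ± 0.64, SE, limma adjusted p = 0.373). Leaving out WT replicate 3 gave 0.37. Hfe, which takes part in iron sensing, had 1641, 1571 and 1416 in KO and 902, 918 and 1057 in WT, and Fth1, the ferritin heavy chain, had 25656, 22603 and 21612 in KO and 10535, 14959 and 20566 in WT. Without WT replicate 3 both were called higher (limma adjusted p = 0.0282 for Hfe and 0.0460 for Fth1), and with all libraries neither was (0.0739 and 0.231). Hfe had positive nascent ratios, 1.36 by EU and 0.97 by Br. Hfe and Fth1 were named after their values were seen. Hamp, which encodes the iron hormone hepcidin, had 2038, 3642 and 13552 in KO and 7090, 5186 and 15184 in WT, a spread of several fold within each group. Its EU reads were 876 in KO and 88 in WT (4.29), and its Br ratio was -0.34.

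Metallothioneins also bind copper. Of 10 copper handling genes none was called by limma or edgeR, 2 had an unadjusted p under 0.05, and the median log2 difference was -0.19. Sod1, the copper and zinc superoxide dismutase, had 21903, 8764 and 8101 in KO libraries and 30294, 24870 and 18644 in WT libraries, which overlapped in 1 KO library (-1.06 ± 0.40, SE, limma adjusted p = 0.19).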
